A study of Homo sapiens with 2 samples.

Results

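The 40 autophagy genes described here are those whose symbol starts with ATG and a digit, together with 22 named genes of the same pathway, from the ULK kinases to the lysosomal membrane proteins LAMP1 and LAMP2. The rule takes them by name and uses no measured value, although the list was drawn up with earlier results of these data known, and they are 40 of the 18132 genes that the Affymetrix array names through probe sets with 1 gene symbol. A probe set is a group of short probes read as 1 value, and the 40 genes have 135 of them. The study asked which transcripts lie downstream of SUN2, a protein of the inner nuclear membrane. It used HCT116, an established line of human colorectal carcinoma cells, grown in DMEM with serum. The control cells carried a scrambled hairpin (Scr, titled NC), and the knockdown cells carried the hairpin shSUN2-1. Whether either culture was 1 clone or a pool, and how long the hairpin had acted, is not stated in the labels. Each group has 1 array, so no value has a replicate and no test was possible.

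Autophagy is the route by which a cell wraps part of its cytoplasm in a double membrane, the autophagosome, and delivers it to the lysosome. A kinase complex around ULK1 starts it, a lipid kinase complex around BECN1 and PIK3C3 marks the new membrane, and a pair of ubiquitin-like conjugation systems attach proteins of the LC3 and GABARAP family to it. Cargo receptors such as SQSTM1 (p62) bind both the cargo and that family, and TFEB is a transcription factor that switches on many autophagy and lysosome genes. Most of the control of this pathway acts on proteins, through phosphorylation and turnover, which an array of transcripts does not measure.

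Values are the deposited intensities, and a difference is the knockdown minus the control on the log2(intensity + 16) scale, which understates a change of a dim gene. Where a gene has several probe sets, the one with the highest average signal on the arrays, here called its brightest, stands for it. A gene counts as measured when this average reaches the array-wide median, an intensity of 108.1. Of the 40 genes, 37 passed this filter. ULK2, UVRAG and ATG16L2 did not, with control intensities of 104.1, 83.6 and 106.6 at their brightest probe sets. Background is still part of the values: control probes on the array that have no human target read from 31.2 to 1425 on the control array, mostly rising with their G and C content, and 20 of these 23 controls were lower in the knockdown.

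The autophagy genes as a whole differed little between the arrays, and the differences that stood out belonged to a few of them. The largest increase was that of ATG12, a ubiquitin-like protein of the conjugation machinery, at 1.88-fold, seen on 1 of its probe sets only. SQSTM1 was 1.30-fold higher, with its 5 probe sets higher by 0.03 to 0.37 on the log2 scale, and MAP1LC3B was 1.18-fold higher. The largest decrease was that of LAMP1, at 1.38-fold, with its 3 probe sets all lower, from -0.46 to -0.16 on the log2 scale. The 9 measured genes of the ULK and BECN1 complexes lay between 0.00 and 0.21 on the log2 scale, 5 of them within the scatter of probe sets (SD 0.09), and BECN1, the highest, stood at -0.02 under 1 alternative.

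Of the 37 measured genes, 23 were higher and 14 were lower in the knockdown, where 49.8% of all 12220 genes past the filter were higher and 50.2% were lower. Their median difference was 0.04 with quartiles of -0.04 and 0.14, against a median of -0.0009 and quartiles of -0.08 and 0.11 for all genes. Among the 22 in the upper 5 of 10 equal bins by signal, 12 were higher, against 62.7% of all genes there. The medians in these bins were 0.07 for the autophagy genes and 0.05 for all genes. Of the 15 in the lower bins, 11 were higher, whereas most of all genes there were lower. The medians in the lower bins were 0.04 for the autophagy genes and -0.04 for all genes. By at least 0.32 on the log2 scale, 2 of the 37 were higher, ATG12 and SQSTM1, against 3.09% of all genes, and 1 was lower, LAMP1, against 0.442%. After quantile normalization or a loess correction this split was 1 higher (ATG12) and 1 lower (LAMP1). At 1.5-fold ATG12 alone remained, with 0.336% of all genes that far higher and 0.0245% that far lower, and 0 of the 37 reached 2-fold in either direction (0.0736% of all genes higher, 0.00818% lower). In 20 of the 37 genes, or 54.1%, the difference was within 0.1 of 0, and so it was in 54.8% of all genes.

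**Figure D1:**
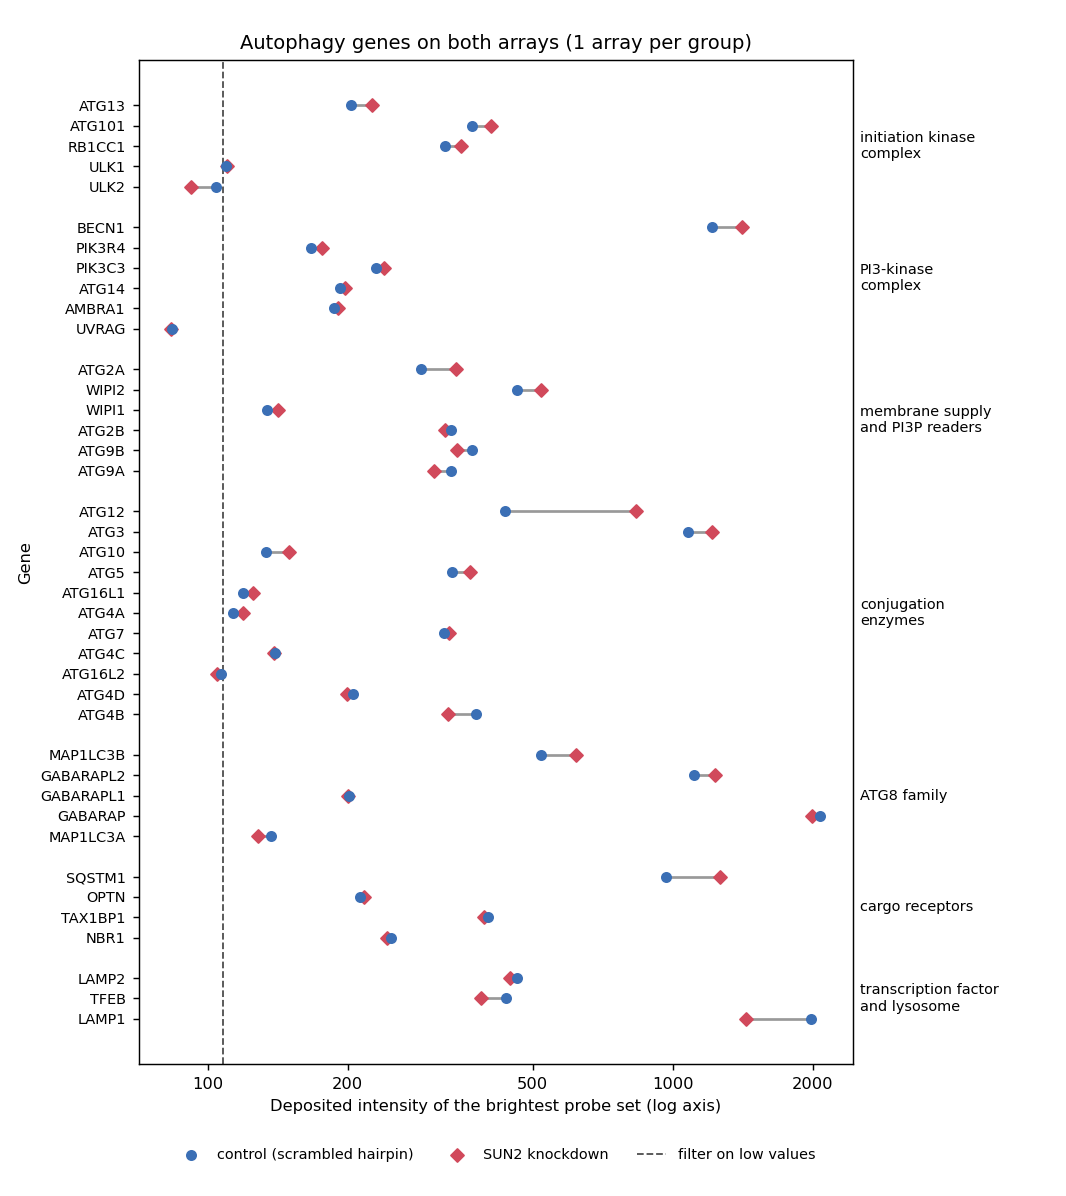
Intensity of the brightest probe set of each of the 40 autophagy genes on the control array (blue circles) and the SUN2 knockdown array (red diamonds), on a log axis, grouped by role, with the filter on low values as a dashed line. The widest gaps are those of ATG12 (436.1 to 832.3), LAMP1 (1983 to 1435) and SQSTM1 (969.2 to 1261), and most pairs of points nearly touch.

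The only measure of error in these data is the scatter of probe sets of the same gene. It covers probe error within the arrays and no variation between cultures. Around their gene's mean, probe sets past the filter had an SD of 0.09 over the 5775 genes with at least 2 of them, and 0.12 over the 26 autophagy genes with at least 2. ATG2A has 2 probe sets with identical values on both arrays, which were counted as 1. In 18 of the 26 autophagy genes, or 69.2%, all probe sets past the filter differed in the same direction, 10 of them higher and 8 lower, against 63.8% of all such genes. The other 11 measured genes rest on 1 probe set past the filter. By more than that SD of 0.09, 13 of the 37 genes were higher and 5 were lower, against 28% and 19.9% of all genes.

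**Figure D2:**
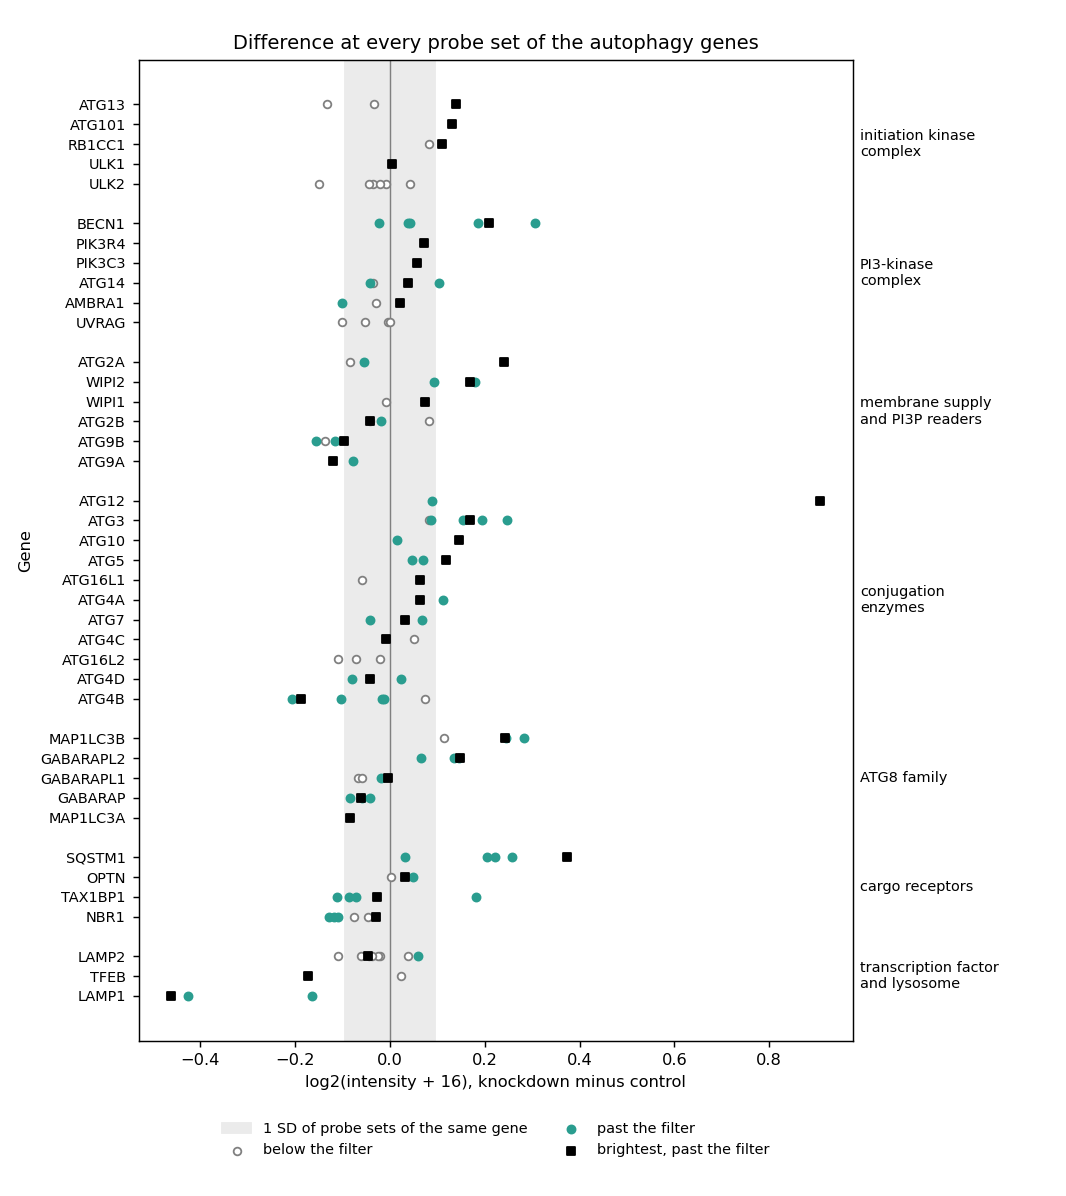
Difference between the arrays at every probe set of the 40 genes, knockdown minus control on the log2(intensity + 16) scale. Black squares are the brightest probe set where it passes the filter, green circles the others past the filter, open circles those below it, and the grey band is 1 SD (0.09) of probe sets of the same gene. The 3 probe sets of LAMP1 lie to the left of the band and those of MAP1LC3B to the right, while the probe sets of ATG12 lie far apart, at 0.91 and 0.09.

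The initiation kinase complex holds ULK1 or ULK2 with ATG13, RB1CC1 (FIP200, its scaffold) and ATG101. All 4 measured members were higher, with a median of 0.12, where 49.8% of all genes past the filter were higher. ULK1, the kinase itself, read 109.4 in the control and 109.8 in the knockdown, a difference of 0.00 on its single probe set, which lies just past the filter. The ULK1 difference was smaller than the scatter of probe sets. ATG13 was higher by 0.14, ATG101 by 0.13 and RB1CC1 by 0.11, each on 1 probe set past the filter. For ATG13 the 2 dimmer probe sets were lower, so that the mean of all 3 was -0.01. ULK2, the paralog of ULK1, stood below the filter, and 5 of its 6 probe sets were lower.

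The lipid kinase complex makes phosphatidylinositol 3-phosphate on the forming membrane, with PIK3C3 as its catalytic subunit, PIK3R4 as its regulatory subunit and BECN1 as its core adaptor. Its 5 measured genes were all higher, with a median of 0.06, where 49.8% of all genes past the filter were higher. At the brightest probe sets, BECN1 alone differed by more than the probe set SD of 0.09. BECN1 read 1217 in the control and 1408 in the knockdown, 115.7% of control and a difference of 0.21 (1.16-fold). The 6 BECN1 probe sets ran from -0.02 to 0.31, 5 of them higher, with a mean of 0.13 ± 0.13 (SD over probe sets). The array design marks probe sets as _x_at or _s_at where they may be shared with other transcripts or genes, and the 2 for BECN1 that carry neither mark differed by -0.02 and 0.04. The other genes of the complex differed less. PIK3R4 was higher by 0.07 and PIK3C3 by 0.06, each on its single probe set, ATG14, which directs the complex to autophagy, by 0.04, and AMBRA1, a binding partner of BECN1, by 0.02. AMBRA1 and ATG14 each had a further probe set past the filter that was lower, at -0.10 and -0.04. The remaining ATG14 probe set past the filter was higher by 0.10. UVRAG, which takes the place of ATG14 in the endosomal form of the complex, was below the filter on all 4 of its probe sets.

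Lipid supply and the reading of that lipid mark showed no common direction: 3 of 6 genes were higher and 3 lower, with a median of 0.02. ATG2A, which transfers lipids into the growing membrane, read 286.9 in the control and 341.9 in the knockdown, a difference of 0.24 (1.18-fold). Its other probe set past the filter was lower, at -0.06, and the mean of the 3 distinct probe sets was 0.03. Its paralog ATG2B differed by -0.04. WIPI2, which binds the lipid mark and recruits the conjugation machinery, read 462.6 and 521.9, higher by 0.17, and each of its 3 probe sets was higher, by 0.09 to 0.18. WIPI1, a related lipid reader, was higher by 0.07 on 1 probe set past the filter.

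Both ATG9 genes, which encode scramblases carried in vesicles to the site of membrane growth, were lower. ATG9A read 334.2 in the control and 306.4 in the knockdown, a difference of -0.12, with -0.08 on the other probe set that names it alone. ATG9B read 369.3 and 344.0, a difference of -0.10, and all 4 of its probe sets were lower. A further 5 probe sets past the filter name ATG9A together with ABCB6 and are no part of these values; 3 of them were lower and 2 higher, from -0.09 to 0.21.

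The conjugation enzymes were mixed, with 7 of 10 measured genes higher and a median of 0.06, where 49.8% of all genes past the filter were higher. ATG12, which is joined to ATG5 by ATG7 and ATG10, read 436.1 in the control and 832.3 in the knockdown at its brightest probe set, a difference of 0.91 (1.88-fold), and 12 of the 12220 genes had a larger increase. That probe set is of the _x_at class. The other ATG12 probe set read 120.4 and 129.0, a difference of 0.09, which is inside the scatter of probe sets. The increase of ATG12 therefore rests on 1 probe set, and the mean of both was 0.50.

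ATG3, the enzyme that transfers LC3 and GABARAP proteins to lipid, read 1080 in the control and 1216 in the knockdown, a difference of 0.17 (1.12-fold). Its 6 probe sets were all higher, by 0.08 to 0.25. ATG5, the partner of ATG12, read 335.4 and 365.5, higher by 0.12, with all 3 probe sets higher, by 0.05 to 0.12. ATG10, the transferase specific for ATG12, was higher by 0.15 on one probe set and by 0.02 on the other. ATG7, the activating enzyme shared by both conjugation systems, differed by 0.03, with its 3 probe sets from -0.04 to 0.07. ATG16L1, which holds the ATG12-ATG5 conjugate at the membrane, was higher by 0.06, while all 3 probe sets of ATG16L2 lay below the filter and were lower.

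The ATG4 proteases, which process LC3 and GABARAP proteins before and after conjugation, did not share a direction. ATG4B, the main one of the family, read 377.4 in the control and 329.2 in the knockdown, a difference of -0.19 (1.14-fold lower). Each of the 5 ATG4B probe sets that passed was lower, between -0.21 and -0.01, and the sixth, below the filter, was higher by 0.07. ATG4D differed by -0.04, ATG4C by -0.01 and ATG4A by 0.06, the last with 0.11 on its second probe set. The ATG4A, ATG4C and ATG4D differences at their brightest probe sets were smaller than the scatter of probe sets.

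In the LC3 and GABARAP family, the proteins that are attached to the autophagosome membrane, 2 of 5 genes were higher and 3 lower. MAP1LC3B, whose lipid-bound protein is the usual marker of autophagosomes, read 520.8 in the control and 619.4 in the knockdown, 118.9% of control and a difference of 0.24 (1.18-fold). All 4 MAP1LC3B probe sets were higher. The 3 past the filter were higher by 0.24 to 0.28, with a mean of 0.26 ± 0.02 (SD over probe sets), and the fourth, below it, by 0.11. GABARAPL2 read 1113 and 1235, higher by 0.15, with all 4 probe sets higher, by 0.07 to 0.15.

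The other three genes of the family were level or lower. GABARAP read 2076 in the control and 1989 in the knockdown, a difference of -0.06, and its 4 probe sets lay between -0.08 and -0.04. MAP1LC3A read 136.9 and 128.1, a difference of -0.09 on its single probe set. GABARAPL1 read 201.3 and 200.7, a difference of -0.00, with all 4 of its probe sets between -0.07 and -0.00. MAP1LC3B and GABARAP thus differed in opposite directions on every probe set of each. Each GABARAP difference was smaller than the scatter of probe sets (SD 0.09).

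Among the cargo receptors, SQSTM1 alone stood apart. SQSTM1 links ubiquitinated proteins to LC3 and is itself degraded by autophagy. It read 969.2 in the control and 1261 in the knockdown, 130.1% of control and a difference of 0.37 (1.30-fold), and 224 of the 12220 genes had a larger increase. All 5 SQSTM1 probe sets were higher, by 0.03 to 0.37, with a mean of 0.22 ± 0.12 (SD over probe sets). The lowest of these, 0.03, was the single probe set outside the _x_at and _s_at classes, which read 255.7 and 261.8.

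The remaining receptors differed by less than the scatter of probe sets at their brightest probe sets. NBR1, a receptor related to SQSTM1, differed by -0.03, and all 6 of its probe sets were lower, from -0.13 to -0.03. TAX1BP1 differed by -0.03, with 4 of 5 probe sets lower and the fifth higher by 0.18. OPTN, a receptor for bacteria and damaged mitochondria, was higher by 0.03, with all 3 probe sets between 0.00 and 0.05.

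The transcription factor TFEB and the lysosomal membrane protein LAMP1 were lower, and LAMP2 was nearly level. LAMP1, an abundant glycoprotein of the lysosomal membrane, read 1983 in the control and 1435 in the knockdown, 72.4% of control and a difference of -0.46 (1.38-fold lower). Only 19 of the 12220 genes had a larger decrease. The other probe sets of LAMP1 read 1004 and 742.7 (-0.43) and 123.4 and 108.4 (-0.16), so all 3 were lower, with a mean of -0.35 ± 0.16 (SD over probe sets). The first 2 are of the _s_at and _x_at classes, and the third, outside them, lies near the filter. The loss at the brightest LAMP1 probe set was 548 intensity units and at the second 261.3, beside a loss of 297.2 at the background control with 25 G or C bases, 81.1 at the one with 24, and 72.6 or less at all others. The part of background in the LAMP1 decrease was not tested, since the G and C content of the probes was not used here.

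TFEB read 438.9 in the control and 387.7 in the knockdown, a difference of -0.17 (1.13-fold lower), on its single probe set past the filter, and its second probe set, below the filter, differed by 0.02. LAMP2, whose A form is the receptor of chaperone-mediated autophagy, read 462.5 and 447.7, a difference of -0.05. The other LAMP2 probe set past the filter was higher by 0.06, and 6 of the 7 below it were lower. The LAMP2 difference was smaller than the scatter of probe sets, unlike that of LAMP1.

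TFEB binds DNA at the E-box CACGTG, and best known from lysosomal genes is the CLEAR motif, that E-box with GT directly before it and AC directly after it. Both were searched on both strands in RefSeq promoter sequences (GRCh38.p14), from 250 bases before to 50 bases after each start site; every CLEAR motif also holds the E-box. Of the 40 genes, 35 have a promoter in that table, with 46 start sites in all. The E-box was present at 3 of these 46, or 6.52%, and in 7.26% of all 35116 promoters. The CLEAR motif, counted only where every base matched, was present at 0 of the 46 and in 0.353% of all. Variants of it with other bases beside the E-box were not searched. The 3 genes with an E-box were LAMP1, ATG3 and ATG14. LAMP1 had 6 E-boxes, and no other promoter in the table had as many: 1 of 35116 held at least 6. The bases before each start site are shown here 5′ to 3′, with each E-box in capitals, because LAMP1 is the autophagy gene with the largest decrease and these are the promoters that hold the motif. LAMP1 lies on the + strand at chr13:113297039-113297238, ATG3 on the - strand at chr3:112561963-112562022 and ATG14 on the - strand at chr14:55411831-55411890.
LAMP1: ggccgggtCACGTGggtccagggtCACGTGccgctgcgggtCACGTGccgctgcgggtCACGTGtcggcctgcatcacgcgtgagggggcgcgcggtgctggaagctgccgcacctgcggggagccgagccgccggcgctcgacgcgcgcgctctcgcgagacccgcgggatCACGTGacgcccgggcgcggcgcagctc
ATG3: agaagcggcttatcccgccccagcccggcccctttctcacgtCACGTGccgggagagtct
ATG14: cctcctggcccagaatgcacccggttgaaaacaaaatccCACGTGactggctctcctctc
In LAMP1, 4 of the E-boxes begin 192, 176, 159 and 142 bases before the start and the fifth 28 bases before it; the sixth begins 1 base before the start and runs past the printed stretch. In ATG3 the E-box begins 18 bases before the start, with a second after it, and in ATG14 it begins 21 bases before. The 3 genes did not share a direction, with differences of -0.46, 0.17 and 0.04. A match of letters is not a bound site, and TFEB binding was not measured.

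The difference between the arrays also ran with signal, which touches the brighter of these genes. Ordered by mean signal, the top 10% of all genes past the filter had a median difference of 0.10 and the lowest 10% one of -0.04. The 6 autophagy genes in the top 10% were SQSTM1 (0.37), BECN1 (0.21), ATG3 (0.17), GABARAPL2 (0.15), GABARAP (-0.06) and LAMP1 (-0.46). With a loess correction for this trend, BECN1 stood at 0.10, ATG3 at 0.06, GABARAPL2 at 0.04 and SQSTM1 at 0.27, while LAMP1 stood at -0.57 and GABARAP at -0.17. Probe sets below the filter were mostly lower, both among the autophagy genes (30 of 41, or 73.2%) and among all genes (66.4%).

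**Figure D3:**
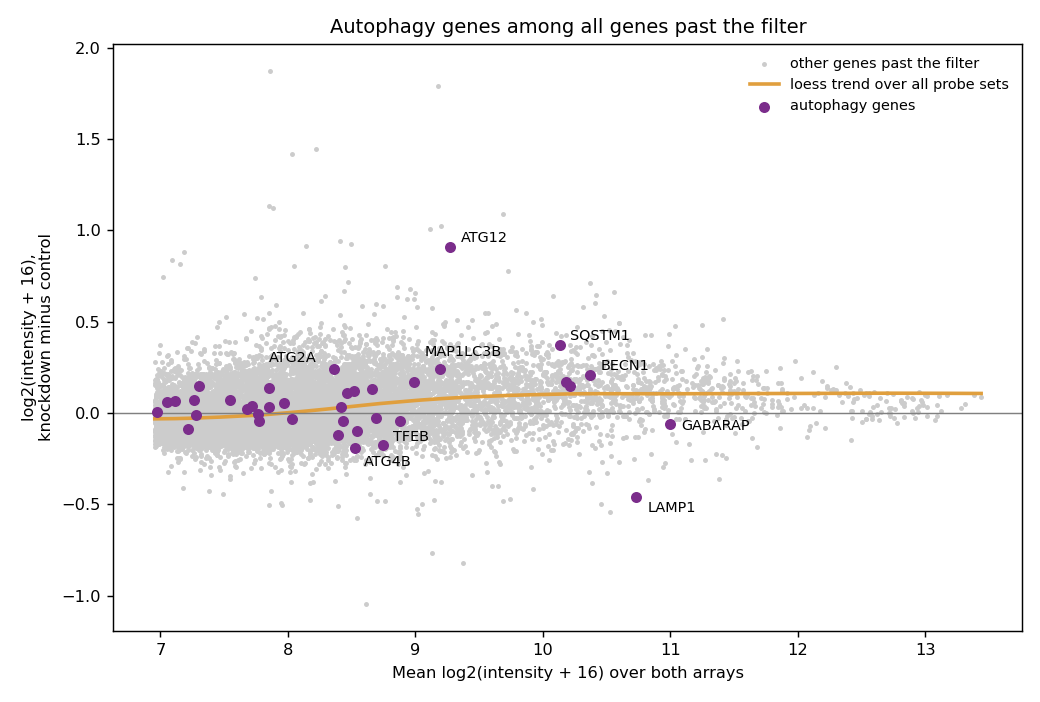
Difference between the arrays against the mean log2(intensity + 16) for all 12220 genes past the filter (grey), with the 37 autophagy genes in purple and the loess trend over all probe sets in orange. The trend rises from below 0 to about 0.1, and SQSTM1, ATG12 and MAP1LC3B lie above it while LAMP1, GABARAP, TFEB and ATG4B lie below it.

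Genes that act around the 40 were taken from 8 lists. Of their 213 genes, 178 passed the filter, 113 of these were higher and 65 lower, and the median was 0.05. That is 63.5% higher, against 49.8% of all genes past the filter, and against 62.7% of those in the upper 5 of 10 equal bins by signal. The 178 genes were not sorted into these bins, and they include dim ones such as CTSF, at 113.4 in the control. The counts for each list stand against the same shares. By at least 0.32 on the log2 scale, 6 were higher and 1 was lower, against 3.09% and 0.442% of all genes, and 0 reached 1.5-fold.

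Upstream of ULK1, the kinases mTORC1 and AMPK and their regulators had a median of 0.08, with 19 of 27 higher. The p53-responsive sestrin SESN1 was higher by 0.25, RHEB, which activates mTORC1, by 0.24, and the kinase MTOR by 0.15. Their intensities went from 166.1 to 200.1, from 1240 to 1468 and from 153.7 to 172.2. Partners of initiation had a median of 0.06, with 14 of 21 higher. NRBF2, a subunit of the BECN1 complex, was higher by 0.26, the small GTPase RAB11A by 0.23 and the chromatin protein HMGB1 by 0.23, whose 7 measured probe sets spanned -0.01 to 0.34.

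The list of autophagy receptors beyond the 4 above had a median of 0.06, with 14 of 20 higher. It also holds KEAP1, TBK1 and PINK1, which are not receptors themselves. FUNDC1, a mitochondrial receptor for LC3, read 526.4 in the control and 685.4 in the knockdown, higher by 0.37. KEAP1, the ubiquitin ligase adaptor that SQSTM1 binds, read 315.0 and 407.4, higher by 0.36, and the ferritin receptor NCOA4 was higher by 0.23. Each of the 3 rests on 1 probe set past the filter. Genes for fusion with the lysosome had a median of 0.09, with 11 of 19 higher. BORCS7, which helps to move lysosomes, read 378.4 and 503.2, higher by 0.40, and its 4 probe sets past the filter lay between 0.35 and 0.41. The SNARE protein YKT6 was higher by 0.32 and the late endosomal GTPase RAB7A by 0.31, with 0.05 and 0.06 at their lowest probe sets past the filter.

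Lysosomal hydrolases had a median of 0.05, with 23 of 32 higher: NEU1, a sialidase, was higher by 0.25, the fucosidase FUCA1 by 0.23 and the thioesterase PPT1 by 0.23, whose measured probe sets spanned -0.06 to 0.23. Subunits of the V-ATPase, the pump that acidifies the lysosome, had a median of 0.13, with 12 of 20 higher. ATP6V0E1 read 986.1 in the control and 1331 in the knockdown, higher by 0.43, with 4 probe sets between 0.36 and 0.43, and ATP6V1E1 and ATP6AP2 were higher by 0.27 and 0.26. The lowest of the pump subunits was ATP6V1C1, named after its value was seen, at -0.24, and its 4 measured probe sets were all lower, from -0.24 to -0.17.

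Lysosomal membrane genes were the 1 list with a median below 0, at -0.03, with 13 of 23 lower. OSTM1, a partner of the chloride transporter CLCN7, was higher by 0.40 and the two-pore channel TPCN1 by 0.38, with another TPCN1 probe set at -0.11. NPC2, a cholesterol carrier of the lysosome lumen, is in this list but is not a membrane protein. It read 1612 in the control and 1283 in the knockdown, a difference of -0.33. Its 3 probe sets were all lower, from -0.33 to -0.05. The list of transcription regulators of autophagy had a median of 0.04, with 10 of 16 higher. It also holds the membrane proteins DRAM1, DRAM2 and BNIP1, which are not transcription regulators. The p53 target DRAM1 was higher by 0.29, while TP53INP1 and FOXO1 differed by -0.18 and -0.12.

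**Figure D4:**
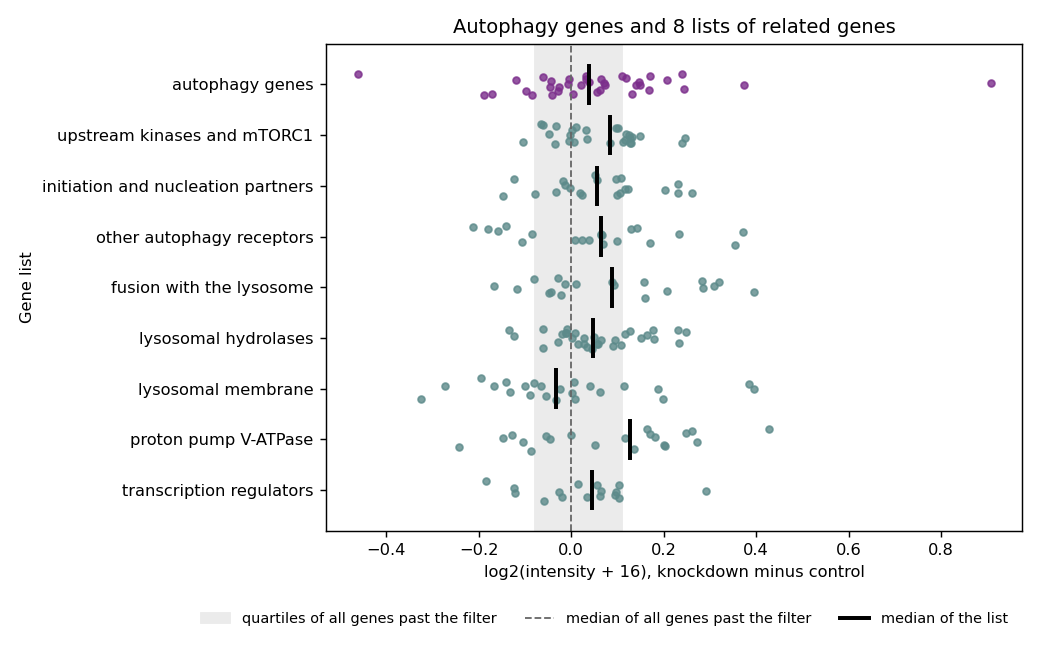
Difference between the arrays for the 37 measured autophagy genes (purple) and for 8 lists of related genes (green), 1 point per gene at its brightest probe set, with each list's median as a black bar. The grey band shows the quartiles of all genes past the filter (-0.08 to 0.11) and the dashed line their median; the medians lie between -0.03 for lysosomal membrane genes and 0.13 for the V-ATPase.

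SUN2 itself was lower on all 6 of its probe sets. The 3 brightest went from 497.7 to 407.3 (-0.28), from 510.4 to 393.4 (-0.36) and from 403.5 to 304.4 (-0.39), between 75.4% and 81.8% of control. Of 8 markers of the epithelial line, 6 passed the filter, among them EPCAM, KRT8 and KRT18. All 6 were higher, where 49.8% of all genes past the filter were higher and 50.2% lower. CDH17 and VIL1 did not pass and were lower, at -0.09 and -0.12. Of the fibroblast, immune and endothelial markers, 6 of 14 with a probe set passed, and these 6 were lower, with differences from -0.13 to -0.07. The summed intensity of these lists went from 713.1 to 674.4, from 315.9 to 300.0 and from 656.7 to 612.5, none of their probe sets was at 0, and their part in the differences was not tested. All 18 spike-in probe sets of the hybridization control were higher in the knockdown.

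The choice of probe sets and of scaling moved several of these genes. Without the _x_at and _s_at classes, ATG12 stood at 0.09, SQSTM1 at 0.03, BECN1 at -0.02, ATG4B at -0.02 and LAMP1 at -0.16, whereas MAP1LC3B and ATG2A stayed at 0.24. Quantile normalization moved GABARAPL2 to 0.02, ATG3 to 0.04 and MAP1LC3B to 0.14.

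**Figure D5:**
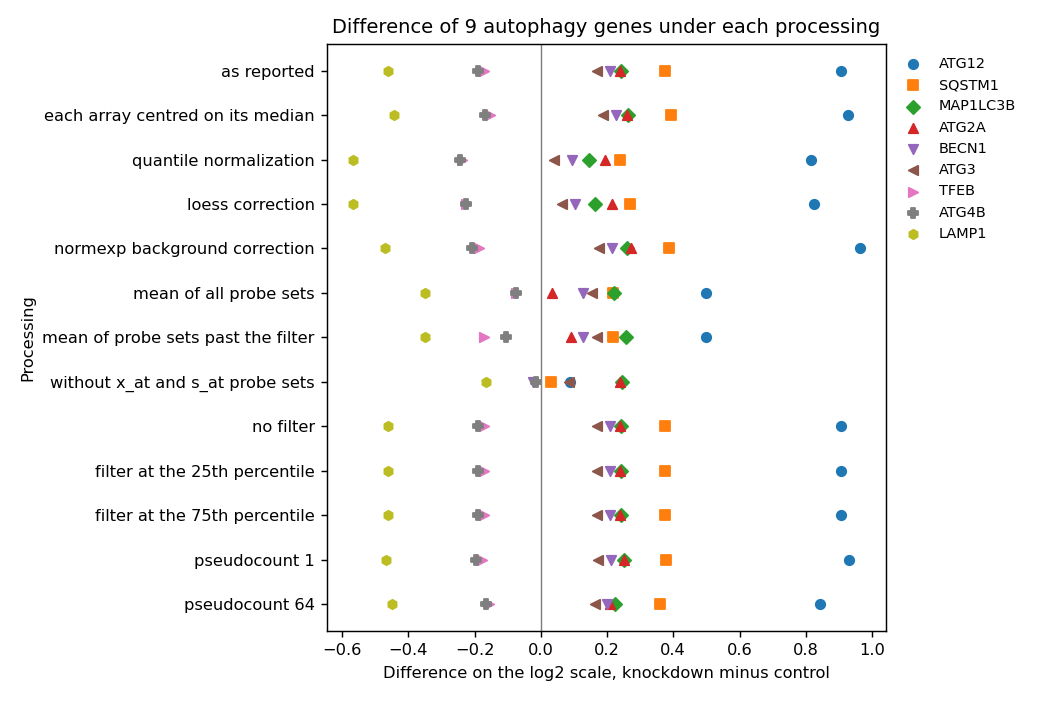
Difference of 9 autophagy genes, knockdown minus control on the log2 scale, as reported and under each of the 12 other ways of processing. LAMP1 is lower and ATG12, SQSTM1 and MAP1LC3B are higher in every row, by amounts that shrink most for ATG12 (0.09), SQSTM1 (0.03) and LAMP1 (-0.16) when the _x_at and _s_at classes are left out.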

How the data were processed

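Total RNA (100 ng per array) from 1 control and 1 knockdown culture of HCT116 cells was labelled with biotin and hybridised to Affymetrix arrays, per the labels. The deposited values are probe set intensities on a linear scale; MAS5 and RMA are named without a role in the submitters' processing notes, while the scaling between the arrays and the genome build of the design are not stated there. The table holds 49395 probe sets, 102 of them controls; 44988 carry 1 gene symbol, 1832 several and 2473 none. Symbols were updated through the Entrez ID with RefSeq GRCh38.p14, which matched all 135 probe sets of the autophagy genes and changed no symbol.

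Differences were taken on the log2(intensity + 16) scale at the brightest probe set of each gene, with a filter at the median of all probe sets (12220 of 18132 genes). With 1 array per group there is no test, standard error or p-value, and the number of arrays limits the precision. Genes named with both intensities were the 8 with the largest difference in each direction and 9 core genes, and in each related list the 3 with the largest difference. The members and lists were chosen with earlier results of these data known. The 12 alternatives, which include other scalings, filters, pseudocounts and probe set choices, used limma 3.58.1 in R 4.3.3 for quantile normalization, loess (span 0.3) and normexp; all else used Python 3.11.15 and pandas 2.3.3. The gene step was tested on simulated data.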

Additional observations from a re-analysis of the deposited data

How the results depend on the processing

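No paired analysis was possible because there is 1 sample in either group, and for the same reason no array could be left out. The median difference of the autophagy genes stayed above 0 under all 12 alternatives, from 0.02 to 0.06. The median of all genes moved as well, from -0.03 after quantile normalization to 0.04 with the filter at the 75th percentile. With that filter the median of the autophagy genes was 0.06. The count of genes higher by at least 0.32 on the log2 scale, 2 as reported, was 1 after quantile normalization, loess correction, the mean of all probe sets and the mean of probe sets past the filter, and 0 without the _x_at and _s_at classes. Among all genes this count was 377 of 12220 as reported, 228 of 12219 after quantile normalization and 259 of 12220 after loess correction. It was 181 and 265 of 12220 under these means, and 276 of 10169 without these classes. The count at least 1.5-fold higher, 1 as reported, was 0 under both means and without these classes. Without these classes the count lower by at least 0.32 went from 1 to 0, with 35 genes left. Among all genes that count was 54 of 12220 as reported and 33 of 10169 without these classes. With the filter at the 75th percentile 15 genes were higher, of the 25 that remained, or 60%, against 59.7% of all 7253 genes past that filter. Of 19 autophagy genes followed singly, 16 kept their sign under every alternative that measured them, and BECN1, LAMP2 and GABARAPL1 did not. The same count was not taken over all genes, and ULK1, among the 16, differed by only 0.00 as reported. Of 224 single values, 195 moved by less than the probe set SD of 0.09 and 29 by more. Part of the 195 was fixed in advance. A change of filter leaves the value of a gene as it was, and centring shifts every gene by the same small amount. The count is therefore no measure of stability. ATG12 ranged from 0.09 to 0.96, SQSTM1 from 0.03 to 0.39 and LAMP1 from -0.57 to -0.16.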
